A study of Homo sapiens with 14 samples.

Results

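A set of 49 genes of DNA replication and of the G1/S transition were followed across every library of a nascent transcription study. They are the genes of a set list of replication and G1/S symbols, read from the deposited count table wherever its gene name was one of them, so 49 of the 58780 genes in that table. By role they are 10 genes of origin licensing, 6 of helicase activation, 9 of the sliding clamp, its loader and the single-strand binding complex, 10 of the polymerases, primase and strand joining, 4 of deoxynucleotide supply, 6 of cyclin E and the E2F factors, and 4 of histone supply and chromatin assembly. The names matched 50 rows, because POLA2 labels a second row that GENCODE 29 names AP000944.2, and that row was kept apart. All 49 passed the filter on low counts, which left 21910 genes for testing. The list, like those of further genes used below, was chosen with earlier results of these data known.

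In G1 the origin recognition complex, CDC6 and CDT1 load the MCM2 to MCM7 helicase onto DNA, and CDC45 and the GINS complex turn it on once S phase begins. PCNA, RFC, RPA and the polymerases then copy both strands, ribonucleotide reductase and its partner enzymes supply deoxynucleotides, and SLBP carries the messenger RNA of the histones that wrap the new DNA. Most of these genes are classical targets of the E2F factors, which RB holds back until cyclin-dependent kinases, among them CDK2 with cyclin E, release them.

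The cells were A549, an established human lung adenocarcinoma line, and the readout was PRO-seq, a run-on assay in which polymerases already engaged on DNA add labelled nucleotides and the labelled RNA is sequenced. GSK591 blocks PRMT5, which makes most symmetric dimethylarginine, whereas MS023 blocks the type I enzymes, which dimethylate arginine asymmetrically, and dexamethasone (Dex) activates the glucocorticoid receptor. The study asked how nascent transcription responds to each inhibitor, alone or beside Dex. The 7 groups of 2 libraries were untreated cells, GSK591 at 1 µM for 15 min, MS023 at 1 µM for 15 min, each of these with Dex at 100 nM for 15 min, GSK591 at 1 µM for 3 h, and MS023 at 1 µM for 3 h, all in 0.01% DMSO. Untreated cells carry the 15 min label, so at 3 h the inhibitor and the longer time in culture cannot be told apart. Untreated cells held for 3 h and cells given Dex alone are not analysed here. The labels do not say that the 2 libraries of a group came from separate cultures, so p-values measure the spread between libraries, which may be technical.

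Total counts ran from 5768312 to 9606938 per library, and mitochondrial genes took 39.8% to 58.0% of them. The 49 genes together took 8900 to 12849 counts, or 0.246% to 0.296% of the nuclear counts. The mean count per library ran from 12.3 for PRIM2 to 851 for CDT1. Replicates differed beyond counting noise in all 7 groups (chi-square divided by its degrees of freedom from 2.08, untreated, to 13.9, GSK591 plus Dex), and none was treated as a duplicate. The 10 epithelial and A549 markers all stood above 1 CPM (counts scaled to library size with TMM factors), with a summed level of 1385 to 1908 CPM, while 0 of 4 immune and 0 of 3 endothelial markers reached a mean of 1 CPM (summed levels of at most 0.707 and 1.84 CPM). Of 4 fibroblast markers 1 did, COL1A1 at 6.72 CPM, and so did 3 of 4 alveolar markers, which summed to 28.7 to 37.3 CPM.

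Per kilobase of exon, TK1, the thymidine kinase of the salvage pathway, had the highest level in untreated cells at 38.2 ± 1.1 CPM per kb (SD, n = 2), followed by the licensing factor CDT1 at 31.5 ± 1.3 and the sliding clamp PCNA at 29.5 ± 0.15. The large primase subunit PRIM2 was lowest at 0.326 ± 0.0041, below the GINS subunit GINS3 at 0.734 ± 0.17 and the clamp loader subunit RFC1 at 0.830 ± 0.21. SLBP ranked 17 of 49 at 5.79 ± 0.38, next to CDC45 at 5.78 ± 0.53 and within their spread. Over the 14 libraries the highest value of SLBP was 3.60 times its lowest, the widest range of the 49 genes, and RRM2 had the narrowest at 1.23 times. Of the genes with 2-fold ranges or more, PRIM1, PRIM2, POLE2 and GINS3 had few counts, with means of 12.3 to 33.6 per library, and CCNE1 had a mean of 77.4.

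**Figure D1:**
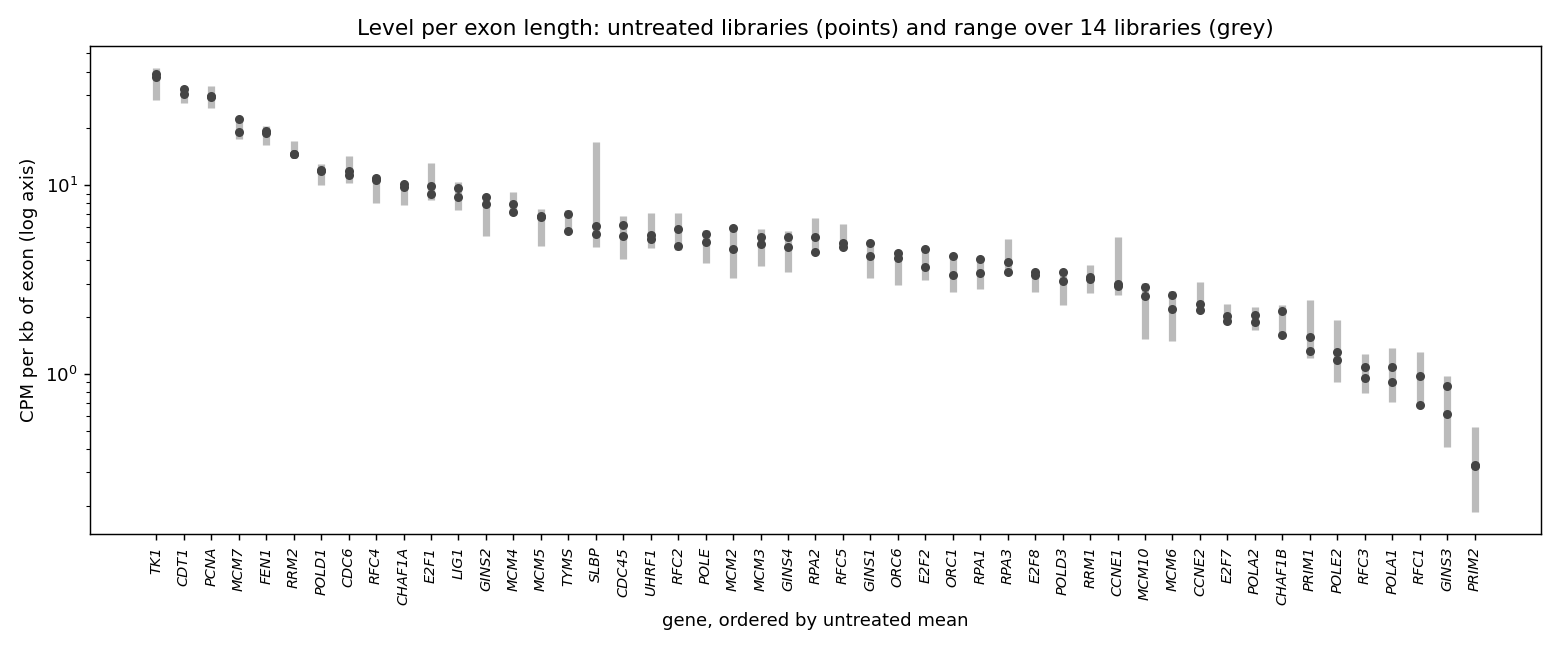
Level of each of the 49 genes per kilobase of exon (y axis, CPM per kb, log scale), ordered by the untreated mean (x axis). Points are the 2 untreated libraries and grey bars the range over all 14 libraries; SLBP, at rank 17, has the longest bar, from its lowest library to one 3.60 times higher.

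After 15 min of either inhibitor alone none of the 49 genes was called, and after 3 h a few were. The stem-loop binding protein gene SLBP rose 2.64-fold with GSK591 and 2.50-fold with MS023 at 3 h, and the licensing, helicase, polymerase and thymidine kinase genes called beside it had log2 fold changes of -0.56 to -0.33. Calls are Benjamini-Hochberg adjusted p-values under 0.05 over all 21910 genes in edgeR's quasi-likelihood test. At 15 min edgeR called 0 of 49 with GSK591 (3 at an unadjusted p under 0.05, 0 by DESeq2), against 0.306% of all genes, and 0 of 49 with MS023 (4 at an unadjusted p under 0.05, 0 by DESeq2), against 0.183% of all genes. At 3 h of GSK591 it called 7, against 11.0% of all genes, with 2 higher (7.25% of all genes) and 5 lower (3.79% of all genes). At 3 h of MS023 it called 5, against 7.63% of all genes, with 1 higher (5.40% of all genes) and 4 lower (2.23% of all genes). The share called in either direction, 14.3% and 10.2% of the 49 genes, was thus near that of all genes.

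In these bulk libraries a smaller share of cells transcribing a gene and less transcription per cell cannot be told apart. The median log2 fold change of the 49 genes at 3 h was -0.08 with GSK591 and -0.15 with MS023, beside -0.01 for all genes tested in each comparison, and 33 and 34 of the 49 values were below 0. Single libraries moved these medians: with GSK591 it was -0.13 without untreated replicate 1 and also -0.13 without GSK591 3 h replicate 2, and with MS023 it was -0.09 without untreated replicate 2 and -0.06 without MS023 3 h replicate 1. These directions hang on the scaling with GSK591: with library size alone in place of TMM, the median of all genes shifted to 0.12 and that of the 49 genes to 0.05, still 0.07 below it as in the TMM fit, and 22 values were below 0. With that scaling every fall called at 3 h was lost and the calls were 2 higher and 0 lower with GSK591 and 1 higher and 0 lower with MS023. With the DESeq2 test, the MS023 calls of MCM5, GINS2 and GINS4 were lost (adjusted p = 0.0757, 0.0753 and 0.0964). So were the GSK591 calls of ORC6 and TK1 (DESeq2 adjusted p = 0.194 and 0.0714). Both comparisons at 3 h share the untreated libraries. Leaving out untreated replicate 2 left 2 calls with GSK591 and 1 with MS023, leaving out GSK591 3 h replicate 1 left 2, leaving out MS023 3 h replicate 1 left 3, and leaving out MS023 3 h replicate 2 left 2.

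**Figure D2:**
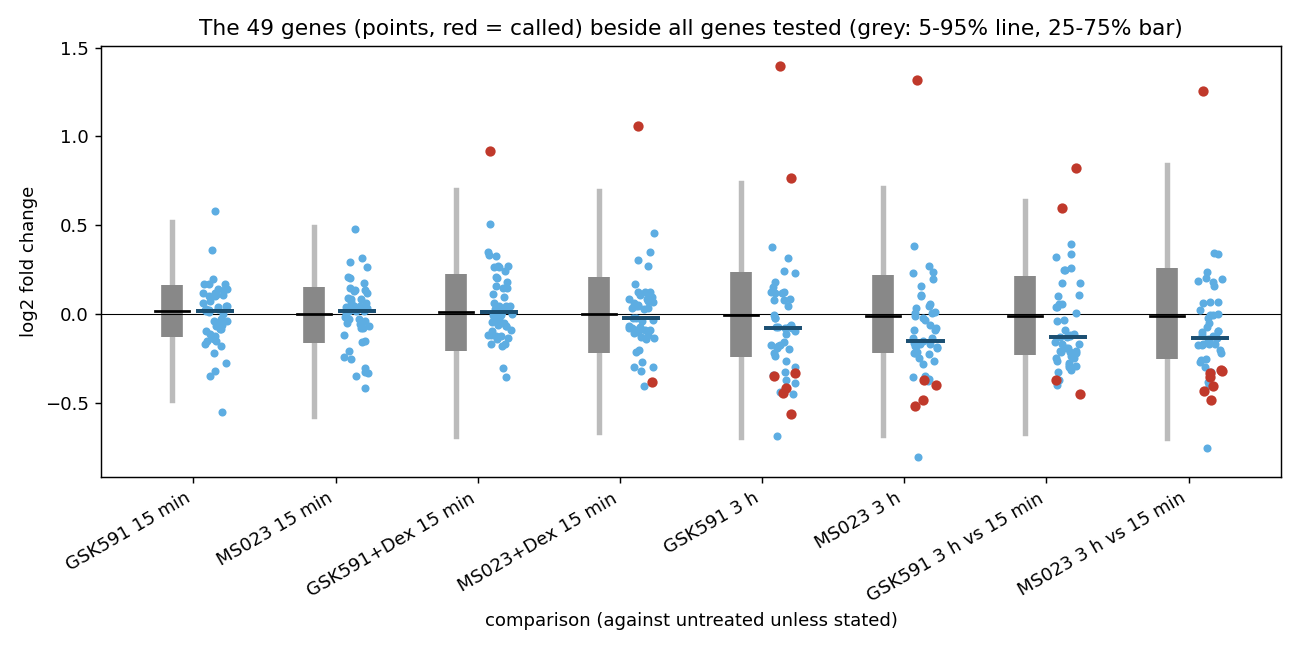
Log2 fold change (y axis) of the 49 genes (points, red where called, dark line their median) in 8 comparisons (x axis), beside all 21910 genes tested (grey line 5% to 95%, grey bar 25% to 75%, black line the median). The medians of the 49 genes sit at -0.08 and -0.15 at 3 h against untreated cells, and SLBP is the highest red point at 1.40 and 1.32.

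The promoters of these genes were searched for motifs. Most of the genes are classical E2F targets, so their share of E2F sites is not independent of how they were chosen. RefSeq promoters (GRCh38.p14, 250 bases before to 50 after the start) were found for 41 of the 49 genes, and MCM4, MCM5, GINS4, RPA2, RPA3, POLD3, CCNE2 and E2F8 had no entry. An E2F site, searched on both strands as TTTCCCGC, TTTGGCGC, TTTCGCGC or TTTGCCGC, lay in 20 of the 41 (48.8%), against 3.31% of all 35116 promoters of that length. The CCAAT box, searched as CCAAT on both strands, lay in 22 of 41 (53.7%) against 34.6%, and the CHR element, searched as TTTGAA on both strands, in 1 of 41 (2.44%), that of RRM1, against 15.2%. Of the 10 genes called in at least 1 comparison that had an entry, 5 held E2F letters and 5 a CCAAT box, shares close to those of the 41. No match of the 3 motifs was found in 10 of the 41, among them the called genes RFC4, TK1, CCNE1 and SLBP. The stretches below are those of genes called at 3 h against untreated cells, with MCM6, whose promoter held the most E2F matches, and capitals mark E2F and CCAAT letters on either strand. SLBP is not shown, since nearly all of its entry lies within an exon of GENCODE 29, and GINS2 is cut to the bases around its match for the same reason.
GINS2 (chr16:85688967-85688996, minus strand): ctctcgccgtgGCGGGAAAacggcggccgc
POLE (chr12:132687343-132687462, minus strand): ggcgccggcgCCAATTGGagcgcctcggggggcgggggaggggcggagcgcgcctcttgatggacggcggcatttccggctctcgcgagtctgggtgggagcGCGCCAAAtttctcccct
ORC6 (chr16:46689539-46689658, plus strand): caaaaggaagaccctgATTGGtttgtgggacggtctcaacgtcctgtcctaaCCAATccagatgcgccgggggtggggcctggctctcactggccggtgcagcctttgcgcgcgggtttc
TK1 (chr17:78187205-78187314, minus strand): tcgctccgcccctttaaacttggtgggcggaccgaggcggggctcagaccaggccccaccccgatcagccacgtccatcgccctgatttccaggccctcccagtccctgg
CCNE1 (chr19:29811778-29811897, plus strand): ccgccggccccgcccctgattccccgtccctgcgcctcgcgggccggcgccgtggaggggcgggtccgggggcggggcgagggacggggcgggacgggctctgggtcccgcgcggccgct
MCM6 (chr2:135876444-135876603, minus strand): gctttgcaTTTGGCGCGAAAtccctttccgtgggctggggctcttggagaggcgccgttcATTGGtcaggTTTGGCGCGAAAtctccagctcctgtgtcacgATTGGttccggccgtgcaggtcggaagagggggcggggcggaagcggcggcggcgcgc
In MCM6 the 4 E2F matches are 2 overlapping pairs, and in POLE the 2 CCAAT matches overlap. A match is a description of letters, and a stretch without capitals says only that these letters are not in it.

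**Figure D3:**
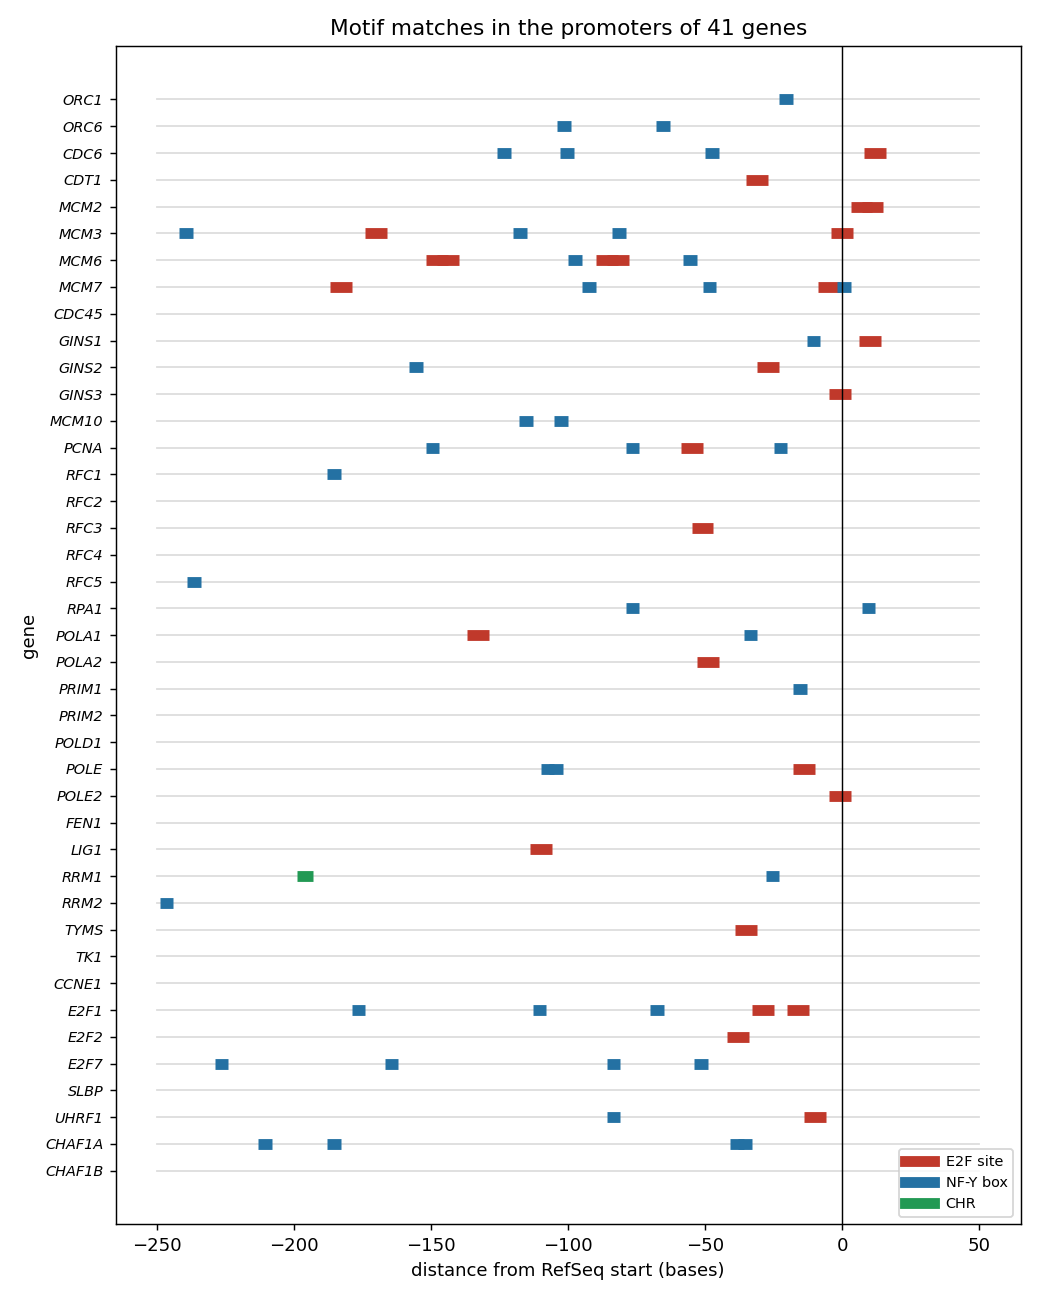
Positions of E2F site (red), NF-Y box, which is the CCAAT box (blue), and CHR (green) matches in the promoters of the 41 genes with an entry (y axis), by distance from the RefSeq start in bases (x axis). Red marks stand in 20 rows and blue in 22, and 10 rows are empty.

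Origin licensing genes leaned downward at 3 h, each by a small amount. All 10 had a log2 fold change below 0 with either inhibitor, as did 11174 and 11292 of the 21910 genes tested. The median of the 10 was -0.25 with GSK591 and -0.20 with MS023. Of them 2 and 1 were called lower, against 3.79% and 2.23% of all genes. With library size alone, 6 of 10 were below 0 with GSK591 and 10 of 10 with MS023, and 9 and 10 were below the median of all genes. MCM5 (chr22:35400063-35425430, plus strand), a subunit of the MCM2 to MCM7 ring, was called with both. It read 49.9 and 50.6 CPM in untreated cells, 44.5 and 47.1 after 15 min of GSK591 and 50.4 and 54.8 after 15 min of MS023. At 3 h it read 34.9 and 40.3 with GSK591 and 38.1 and 39.5 with MS023, and beside Dex 50.8 and 51.7 with GSK591 plus Dex and 47.1 and 48.1 with MS023 plus Dex. All 4 libraries at 3 h were below the other 10. The log2 fold change against untreated cells was -0.42 ± 0.10 with GSK591 (edgeR adjusted p = 0.00481) and -0.38 ± 0.10 with MS023 (edgeR adjusted p = 0.0169), each ± its SE. The GSK591 call was lost without untreated replicate 2 (adjusted p = 0.0701) or GSK591 3 h replicate 1 (adjusted p = 0.163), and the MS023 call without any 1 of the 4 libraries compared (adjusted p = 0.0713 to 0.168).

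ORC6 (chr16:46689643-46698394, plus strand), the smallest subunit of the origin recognition complex, read 18.7 and 17.7 CPM in untreated cells, 13.4 and 16.7 after 15 min of GSK591 and 15.6 and 17.3 after 15 min of MS023. Its values at 3 h were 12.7 and 14.2 with GSK591 and 15.0 and 17.6 with MS023, and beside Dex 16.1 and 16.2 with GSK591 plus Dex and 14.4 and 15.9 with MS023 plus Dex. It fell with GSK591 at 3 h, by 0.44 ± 0.15 on the log2 scale (edgeR adjusted p = 0.0437), where its libraries did not overlap the untreated pair. The call was lost without any 1 of the 4 libraries compared (adjusted p = 0.0867 to 0.3). With MS023 the value was -0.17 ± 0.15 (edgeR adjusted p = 0.58).

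CDC6 (chr17:40287633-40304657, plus strand), which with CDT1 loads the ring, read 62.7 and 66.0 CPM in untreated cells, 63.1 and 67.8 after 15 min of GSK591 and 66.2 and 79.6 after 15 min of MS023. The 3 h libraries gave 60.4 and 67.7 with GSK591 and 56.7 and 56.8 with MS023, and those with Dex 69.6 and 72.7 with GSK591 plus Dex and 64.0 and 67.7 with MS023 plus Dex. Its values after 3 h of MS023 lay below every other library, but against untreated cells neither change was called (-0.01 ± 0.10 and -0.18 ± 0.10, edgeR adjusted p = 0.976 and 0.337). MCM7 (chr7:100092728-100101940, minus strand), whose exons share 8.9% of their length with AP4M1 on the other strand, read 83.8 and 97.8 CPM in untreated cells, 100.4 and 96.6 after 15 min of GSK591 and 101 and 96.1 after 15 min of MS023, then 84.3 and 88.4 with GSK591 and 76.7 and 79.8 with MS023 at 3 h, with 86.0 and 80.8 with GSK591 plus Dex and 88.8 and 89.8 with MS023 plus Dex. Against untreated cells at 3 h its log2 fold changes were -0.07 ± 0.10 and -0.22 ± 0.10 (edgeR adjusted p = 0.71 and 0.19).

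MCM2 (chr3:127598223-127622436, plus strand), another subunit of the ring, read 22.4 and 28.9 CPM in untreated cells, 24.6 and 29.3 after 15 min of GSK591 and 25 and 24.9 after 15 min of MS023. After 3 h the values were 20.4 and 20.5 with GSK591 and 23.4 and 15.8 with MS023, and beside Dex 20.4 and 26.3 with GSK591 plus Dex and 23.8 and 24.2 with MS023 plus Dex. Its log2 fold changes at 3 h, -0.33 ± 0.15 and -0.37 ± 0.15, were close to those of MCM5 but not called (edgeR adjusted p = 0.16 and 0.145), with a mean of 197 counts per library against 383 for MCM5. Exons of TPRA1 and AC023593.1 on the other strand cover 23.6% of its exonic length. The others were ORC1, CDT1, MCM3, MCM4 and MCM6, with log2 fold changes from -0.45 (MCM6) to -0.06 (MCM4) with GSK591 and from -0.38 (MCM3) to -0.09 (MCM4) with MS023, none called.

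Helicase activation genes had the lowest median at 3 h of the 7 roles with either inhibitor. All 6 were below 0 with either inhibitor, with medians of -0.38 and -0.42. Of them 1 and 2 were called lower, against 3.79% and 2.23% of all genes. All 6 stayed below 0 with library size alone. Against the same untreated libraries, 6 with GSK591 and 5 with MS023 were already below 0 at 15 min, with medians of -0.16 and -0.10. With GSK591 plus Dex and MS023 plus Dex, 3 and 4 were below 0, with medians of -0.003 and -0.19. GINS2 (chr16:85676198-85690073, minus strand), a subunit of the GINS tetramer of the active helicase, read 26.0 and 28.1 CPM in untreated cells, 22.4 and 27.8 after 15 min of GSK591 and 27.1 and 22.2 after 15 min of MS023. Libraries of the 3 h groups read 18.4 and 18.3 with GSK591 and 17.4 and 20.5 with MS023, and Dex libraries 25.2 and 28.8 with GSK591 plus Dex and 27.5 and 23.4 with MS023 plus Dex. Each library at 3 h was below each of the other 10. It fell by 0.56 ± 0.14 on the log2 scale with GSK591 (edgeR adjusted p = 0.00399), and its log2 fold change was -0.52 ± 0.14 with MS023 (edgeR adjusted p = 0.0119). Both calls were lost without untreated replicate 2 (adjusted p = 0.0849 and 0.173), and the MS023 call also without MS023 3 h replicate 1 (adjusted p = 0.235).

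GINS4 (chr8:41529206-41545046, plus strand), another GINS subunit, shares 23.6% of its exonic length with AC009630.1 and AC009630.2 on the other strand. It read 25.7 and 28.9 CPM in untreated cells, 21.2 and 21.7 after 15 min of GSK591 and 23.7 and 28.4 after 15 min of MS023. At 3 h it read 20.0 and 23.0 with GSK591 and 19.0 and 20.1 with MS023, and beside Dex 31.1 and 27.7 with GSK591 plus Dex and 24.2 and 20.2 with MS023 plus Dex. The fall with MS023 was called at -0.49 ± 0.13 (edgeR adjusted p = 0.0154) and the value with GSK591 was -0.34 ± 0.13 (edgeR adjusted p = 0.08). After 15 min of GSK591, where both libraries lay below the untreated pair, the value was -0.35 ± 0.13 (edgeR adjusted p = 0.485). The MS023 call was lost without untreated replicate 2 (adjusted p = 0.257) or either MS023 3 h library (adjusted p = 0.168 and 0.0576).

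CDC45 (chr22:19479459-19520612, plus strand), the protein that joins GINS on the ring, read 15.4 and 17.5 CPM in untreated cells, 12.6 and 16.5 after 15 min of GSK591 and 16.3 and 17.0 after 15 min of MS023. Its values at 3 h were 11.6 and 13.8 with GSK591 and 14.3 and 12.6 with MS023, and beside Dex 16.4 and 16.5 with GSK591 plus Dex and 16.2 and 19.5 with MS023 plus Dex. Its log2 fold changes at 3 h were -0.37 ± 0.16 and -0.28 ± 0.16 (edgeR adjusted p = 0.125 and 0.326). GINS3 had the lowest log2 fold changes of the 49 genes, -0.69 ± 0.31 and -0.81 ± 0.32, but few counts (a mean of 27.9 per library) and adjusted p-values of 0.154 and 0.123 in edgeR. GINS1 and MCM10 were between -0.39 and -0.18, not called.

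The clamp, clamp loader and single-strand binding genes showed no call at 3 h. Of the 9, edgeR called 0 with either inhibitor, against 11.0% and 7.63% of all genes. An unadjusted p under 0.05 was found for 0 of them and DESeq2 called 0, with medians of 0.08 and -0.01. PCNA (chr20:5114953-5126626, minus strand), the clamp that tethers polymerases, read 43.6 and 43.2 CPM in untreated cells, 39.7 and 37.6 after 15 min of GSK591 and 49.2 and 42.5 after 15 min of MS023. The 3 h libraries gave 46.6 and 44.9 with GSK591 and 42.6 and 38.8 with MS023, and those with Dex 41.0 and 42.7 with GSK591 plus Dex and 39.7 and 39.1 with MS023 plus Dex. The log2 fold changes at 3 h were 0.08 ± 0.10 and -0.09 ± 0.11 (edgeR adjusted p = 0.718 and 0.709). The values of the 9 ran from -0.18 (RFC4) to 0.24 (RFC2) with GSK591 and from -0.26 (RFC3) to 0.23 (RFC2) with MS023.

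Among the polymerase, primase and joining genes, the catalytic subunit of the leading strand polymerase was the 1 call of 10 with either inhibitor. It was called lower at 3 h, as were 3.79% and 2.23% of all genes. POLE (chr12:132623753-132687365, minus strand) read 83.2 and 91.2 CPM in untreated cells, 88.7 and 88.6 after 15 min of GSK591 and 92.9 and 92.0 after 15 min of MS023. After 3 h the values were 68.4 and 68.6 with GSK591 and 67.7 and 64.1 with MS023, and beside Dex 86.2 and 96.1 with GSK591 plus Dex and 87.9 and 95 with MS023 plus Dex. The 4 libraries at 3 h were all below the other 10, which spanned 83.2 to 96.1 CPM. POLE fell by 0.35 ± 0.10 on the log2 scale with GSK591 (edgeR adjusted p = 0.012), and its log2 fold change was -0.40 ± 0.10 with MS023 (edgeR adjusted p = 0.00487). These calls were lost without untreated replicate 2 (adjusted p = 0.230 and 0.168), the GSK591 call without either GSK591 3 h library (adjusted p = 0.0959 and 0.0725), and the MS023 call without MS023 3 h replicate 2 (adjusted p = 0.0759).

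POLA1 (chrX:24693919-24996986, plus strand), the catalytic subunit of the polymerase that starts each strand, read 5.70 and 6.90 CPM in untreated cells, 6.24 and 5.60 after 15 min of GSK591 and 6.05 and 6.30 after 15 min of MS023. Libraries of the 3 h groups read 8.65 and 6.05 with GSK591 and 4.47 and 6.93 with MS023, and Dex libraries 6.93 and 7.65 with GSK591 plus Dex and 5.61 and 8.11 with MS023 plus Dex. Its libraries overlapped in both comparisons at 3 h (0.23 ± 0.23 and -0.17 ± 0.25, edgeR adjusted p = 0.598 and 0.766). LIG1 (chr19:48115445-48170603, minus strand), which seals the lagging strand, read 56.9 and 63.4 CPM in untreated cells, 64.1 and 58.3 after 15 min of GSK591 and 65.0 and 68.0 after 15 min of MS023. At 3 h it read 53.0 and 48.8 with GSK591 and 54.8 and 51.1 with MS023, and beside Dex 56.6 and 56.3 with GSK591 plus Dex and 60.3 and 53.8 with MS023 plus Dex. Its log2 fold changes at 3 h were -0.24 ± 0.10 and -0.18 ± 0.10 (edgeR adjusted p = 0.129 and 0.334). The others were not called, from -0.20 (POLD1) to 0.38 (POLE2) with GSK591 and from -0.22 (POLD3) to 0.27 (POLE2) with MS023. The second row named POLA2 shares 91.6% of its exonic length with other genes and had 21.5 counts per library on average, so it was not used.

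Of the 4 deoxynucleotide genes, TK1 was called lower with GSK591 at 3 h, against 3.79% of all genes. TK1 (chr17:78174075-78187233, minus strand) read 72.5 and 69.6 CPM in untreated cells, 67.0 and 71.4 after 15 min of GSK591 and 73.7 and 77.6 after 15 min of MS023. Its values at 3 h were 52.5 and 60.6 with GSK591 and 61.9 and 59.6 with MS023, and beside Dex 61.4 and 63.8 with GSK591 plus Dex and 70.8 and 62.6 with MS023 plus Dex. It fell by 0.33 ± 0.10 on the log2 scale with GSK591 (edgeR adjusted p = 0.0232) and was at -0.22 ± 0.10 with MS023 (edgeR adjusted p = 0.183). The call was lost without untreated replicate 1 (adjusted p = 0.186), untreated replicate 2 (adjusted p = 0.111) or GSK591 3 h replicate 1 (adjusted p = 0.328). RRM2 (chr2:10120698-10131419, plus strand), the S-phase subunit of ribonucleotide reductase, had the narrowest range of the 49 genes: it read 78.1 and 77.8 CPM in untreated cells, 87.1 and 75.8 after 15 min of GSK591 and 74.1 and 82.7 after 15 min of MS023, then 85.5 and 83.9 with GSK591 and 77.6 and 78.7 with MS023 at 3 h, with 90.8 and 81.9 with GSK591 plus Dex and 79.7 and 86.8 with MS023 plus Dex. The log2 fold changes at 3 h were 0.12 ± 0.10 and 0.00 ± 0.10 (edgeR adjusted p = 0.499 and 0.992). RRM1 and TYMS lay between -0.10 and 0.12, not called.

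Of cyclin E and the E2F genes, the G1/S cyclin CCNE1 was called higher with GSK591 at 3 h, against 7.25% of all genes. CCNE1 (chr19:29811898-29824308, plus strand) read 7.42 and 7.66 CPM in untreated cells, 8.01 and 8.94 after 15 min of GSK591 and 6.70 and 9.16 after 15 min of MS023. The 3 h libraries gave 13.5 and 12.1 with GSK591 and 9.27 and 10.5 with MS023, and those with Dex 8.63 and 6.89 with GSK591 plus Dex and 10.6 and 10.0 with MS023 plus Dex. The rise with GSK591 was 0.76 ± 0.18 (1.70-fold, edgeR adjusted p = 0.00342) and it was lost without GSK591 3 h replicate 1 (0.68, adjusted p = 0.063). With MS023 the value was 0.38 ± 0.19 (edgeR adjusted p = 0.259), above the untreated pair in both libraries.

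CCNE2 (chr8:94879770-94896678, minus strand), the second E cyclin, read 10.3 and 9.63 CPM in untreated cells, 12.4 and 9.66 after 15 min of GSK591 and 10.3 and 10.2 after 15 min of MS023. After 3 h the values were 13.4 and 11.4 with GSK591 and 10.8 and 12.9 with MS023, and beside Dex 11.3 and 9.95 with GSK591 plus Dex and 10.4 and 12.0 with MS023 plus Dex. It was above the untreated pair in all 4 libraries at 3 h but not called (0.32 ± 0.17 and 0.24 ± 0.18, edgeR adjusted p = 0.264 and 0.503), and INTS8 and AC087752.4 on the other strand cover 37.1% of its exonic length. E2F1 (chr20:33675683-33686404, minus strand), an activating E2F, read 22.6 and 24.6 CPM in untreated cells, 28.8 and 22.9 after 15 min of GSK591 and 26.5 and 32.9 after 15 min of MS023. Libraries of the 3 h groups read 21.0 and 23.8 with GSK591 and 23.0 and 31.7 with MS023, and Dex libraries 29.1 and 27.5 with GSK591 plus Dex and 30.7 and 29.3 with MS023 plus Dex. No comparison called it, and at 3 h it was at -0.08 ± 0.14 and 0.20 ± 0.14 (edgeR adjusted p = 0.808 and 0.474). E2F2, E2F7 and E2F8 lay between -0.30 and 0.12.

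Of the histone supply and chromatin assembly genes, SLBP (chr4:1692800-1712555, minus strand) was the one called. At 3 h of GSK591 and MS023, 7.25% and 5.40% of all genes were called higher. The exons of SLBP overlap no other annotated gene. It read 11.2 and 12.3 CPM in untreated cells, 20.5 and 14.5 after 15 min of GSK591 and 9.51 and 15.8 after 15 min of MS023. At 3 h it read 27.7 and 34.3 with GSK591 and 28.1 and 30.6 with MS023, and beside Dex 26.7 and 17.4 with GSK591 plus Dex and 24.5 and 24.3 with MS023 plus Dex. Every library at 3 h was above all 10 others, and all 4 libraries with Dex were above the untreated pair. The log2 fold change at 3 h was 1.40 ± 0.17 with GSK591 (edgeR adjusted p = 1.74e-07) and 1.32 ± 0.18 with MS023 (edgeR adjusted p = 8.69e-07). At 15 min it was 0.58 ± 0.19 with GSK591 (edgeR adjusted p = 0.31), where both libraries were above the untreated pair, and 0.07 ± 0.20 with MS023 (edgeR adjusted p = 0.97). The calls at 3 h held in 12 of 12 alternatives with each inhibitor, with log2 fold changes of 1.23 to 1.55 and 1.27 to 1.40.

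UHRF1 (chr19:4903080-4962154, plus strand), which brings the maintenance methyltransferase to replicated DNA, read 26.8 and 28.1 CPM in untreated cells, 28.7 and 30.2 after 15 min of GSK591 and 31.9 and 28.1 after 15 min of MS023. Its values at 3 h were 29.9 and 31.3 with GSK591 and 25.8 and 24.0 with MS023, and beside Dex 30.1 and 26.5 with GSK591 plus Dex and 29.8 and 36.4 with MS023 plus Dex. Its libraries at 3 h were above the untreated pair with GSK591 and below it with MS023 (0.15 ± 0.12 and -0.14 ± 0.12, edgeR adjusted p = 0.475 and 0.602), and neither was called. CHAF1A and CHAF1B, subunits of the chromatin assembly factor that places new histones, lay between -0.27 and -0.18 with both inhibitors, not called.

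**Figure D4:**
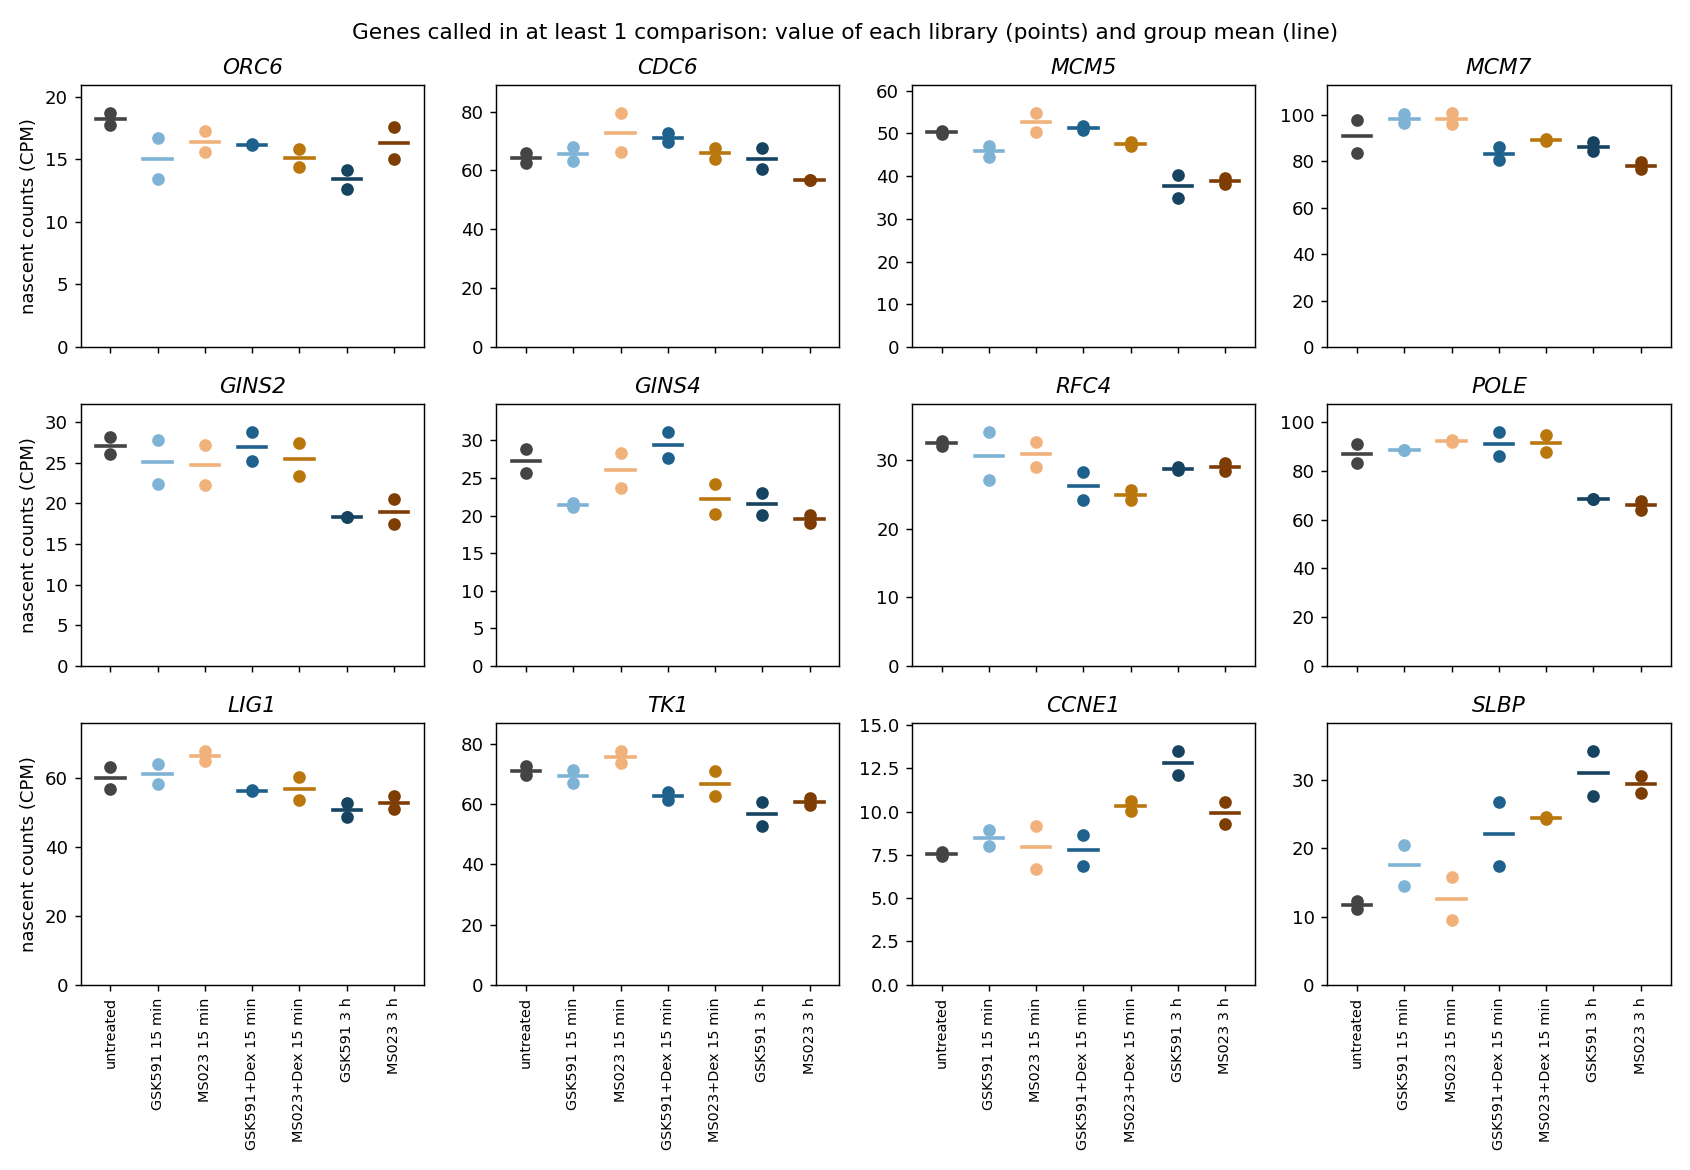
Nascent counts (y axis, CPM from 0) of the 12 genes called in at least 1 comparison, by group (x axis), with 1 point per library and a line at the group mean. SLBP stands highest in the 4 libraries at 3 h (27.7 to 34.3 CPM), and POLE, GINS2 and MCM5 stand lowest there.

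Changes between 15 min and 3 h of the same inhibitor do not use the untreated libraries. With GSK591 edgeR called 4 of 49, against 6.41% of all genes, with 2 higher (3.65% of all genes) and 2 lower (2.77% of all genes): SLBP 0.82 ± 0.17, CCNE1 0.60 ± 0.18, GINS2 -0.45 ± 0.14 and POLE -0.37 ± 0.10 (log2 fold change ± SE, edgeR adjusted p = 0.00126, 0.0384, 0.0417 and 0.0126). With MS023 it called 8, against 12.0% of all genes, with 1 higher (7.65% of all genes) and 7 lower (4.40% of all genes). SLBP rose by 1.25 ± 0.18 (edgeR adjusted p = 2.48e-06). POLE and MCM5 were lower, at -0.49 ± 0.10 and -0.44 ± 0.11 (edgeR adjusted p = 0.000428 and 0.00359), and GINS4, CDC6, MCM7, LIG1 and TK1 were lower, at -0.41, -0.35, -0.33, -0.32 and -0.31 (edgeR adjusted p = 0.0443, 0.0181, 0.0173, 0.0302 and 0.0325). POLE and SLBP were called with both inhibitors. The median of the 49 genes was -0.13 in each comparison, beside -0.01 for all genes. Without GSK591 15 min replicate 2 the median with GSK591 was -0.02, and without MS023 3 h replicate 1 that with MS023 was -0.07. With library size alone they were -0.07 and -0.28, the latter beside a median of -0.16 for all genes.

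Within the GSK591 time comparison, leaving out GSK591 15 min replicate 2 or GSK591 3 h replicate 2 left 0 calls, GSK591 3 h replicate 1 left 1 and GSK591 15 min replicate 1 left 2. In the same comparison, library size alone left 1 call, SLBP, higher. Leaving out single libraries left 3 to 5 calls with MS023, of which SLBP and POLE held in 12 of 12 alternatives. Without MS023 15 min replicate 1 it was 5, without replicate 2 it was 4, and without either MS023 3 h library it was 3. The change over time with GSK591 minus that with MS023, added after the data were seen, called 0 of 49 in edgeR (4 at an unadjusted p under 0.05, 0 by DESeq2), against 0.561% of all genes. For SLBP that difference was -0.43 ± 0.25 (95% interval -0.94 to 0.07).

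**Figure D5:**
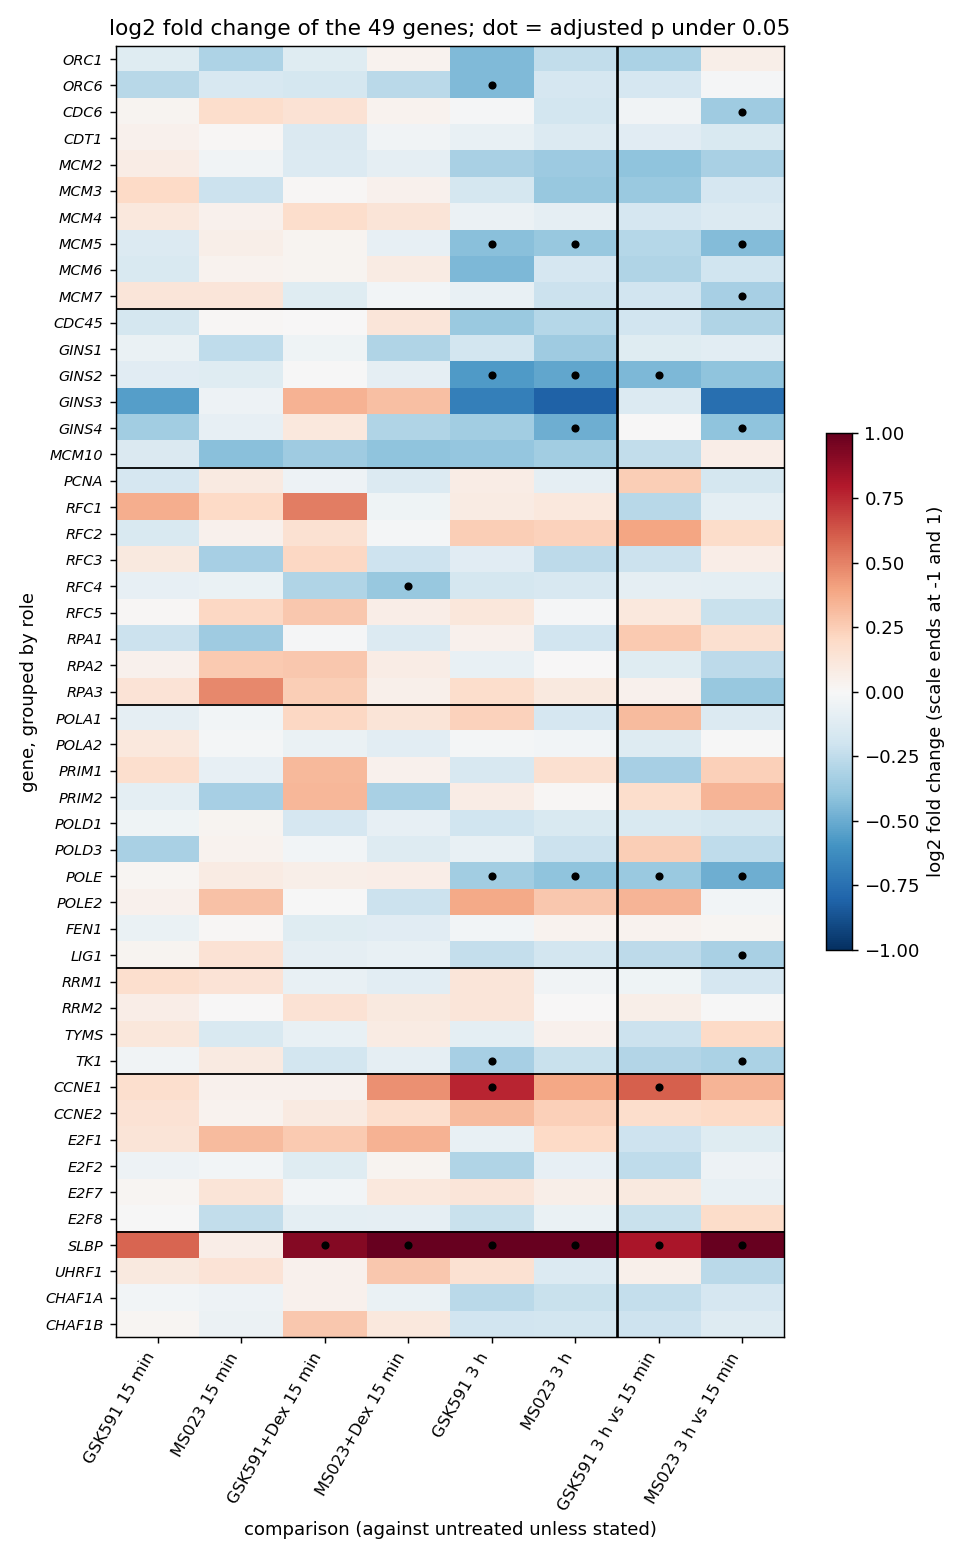
Log2 fold change (colour, scale ending at -1 and 1) of the 49 genes (y axis, grouped by role) in 8 comparisons (x axis), with a dot where the adjusted p is under 0.05. The licensing and helicase rows are below 0 in both 3 h columns against untreated cells. They run from nearly white (CDC6, -0.01 with GSK591) to blue (GINS3, -0.81 with MS023). SLBP is the reddest row, at 1.40 and 1.32 in those columns.

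Few of these genes were called with Dex at 15 min, and comparisons with untreated cells hold the effects of inhibitor and Dex together. Against untreated cells, edgeR called 1 of 49 with GSK591 plus Dex, against 5.85% of all genes, and 2 with MS023 plus Dex, against 7.66% of all genes. SLBP was higher in both, by 0.92 ± 0.19 and 1.06 ± 0.18 (edgeR adjusted p = 0.00136 and 6.74e-05). The former call was lost without untreated replicate 1 (adjusted p = 0.0512) or GSK591 plus Dex replicate 1 (adjusted p = 0.134), and the latter held in 12 of 12 alternatives. RFC4 (chr3:186789880-186807058, minus strand), a clamp loader subunit, was lower with MS023 plus Dex. It read 32.0 and 32.8 CPM in untreated cells, 27.1 and 34.1 after 15 min of GSK591 and 32.7 and 29 after 15 min of MS023. The 3 h libraries gave 28.5 and 28.9 with GSK591 and 29.6 and 28.4 with MS023, and those with Dex 28.3 and 24.2 with GSK591 plus Dex and 24.2 and 25.6 with MS023 plus Dex. The fall was -0.38 ± 0.12 (edgeR adjusted p = 0.045), and it was lost without any 1 of the 4 libraries compared (adjusted p = 0.143 to 0.256).

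Against the same inhibitor without Dex, 1 gene was called in each case. Beside GSK591 it was GINS4, higher by 0.46 ± 0.13 (edgeR adjusted p = 0.0447), against 3.70% of all genes called. Leaving out any 1 of the 4 libraries compared left 0 calls. So did DESeq2 (adjusted p = 0.177), and with library size alone the 1 call was of a lower gene instead. SLBP with Dex beside GSK591 stood at 0.34 and was not called. Beside MS023 the called gene was SLBP, higher by 0.99 ± 0.18 (edgeR adjusted p = 0.000207), against 8.97% of all genes called. Without MS023 15 min replicate 1, whose SLBP value was the lowest of all 14 libraries, 0 were called (SLBP 0.63, adjusted p = 0.116). With library size alone the calls beside MS023 were 1 higher and 2 lower, and the median of all genes shifted to -0.19 there and to -0.21 beside GSK591. The difference between these Dex effects called 0 of 49 in edgeR (7 at an unadjusted p under 0.05, 0 by DESeq2), against 1.15% of all genes. It was -0.65 ± 0.26 for SLBP (95% interval -1.17 to -0.13, edgeR adjusted p = 0.291) and 0.68 ± 0.19 for GINS4 (95% interval 0.29 to 1.06, edgeR adjusted p = 0.068). Without GSK591 plus Dex replicate 1 the number called was 1.

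The inhibitors, which act on different methyltransferases and were given at the same dose and times, were then compared directly. At 15 min edgeR called 0 of 49 (5 at an unadjusted p under 0.05, 0 by DESeq2), against 1.09% of all genes, and 1 without MS023 15 min replicate 2. At 3 h it called 0 of 49 (2 at an unadjusted p under 0.05, 0 by DESeq2), against 0% of all genes. The GSK591 minus MS023 difference at 3 h was 0.08 ± 0.16 for SLBP (95% interval -0.24 to 0.39), 0.05 ± 0.10 for POLE (-0.15 to 0.25), -0.04 ± 0.15 for GINS2 (-0.34 to 0.25) and -0.04 ± 0.11 for MCM5 (-0.26 to 0.17). For CCNE1 it was 0.38 ± 0.18 (0.02 to 0.74, edgeR adjusted p = 0.802) and for UHRF1 0.29 ± 0.12 (0.04 to 0.54, edgeR adjusted p = 0.767). CCNE1 was thus called against untreated cells with GSK591 and not with MS023, but the difference between the inhibitors was not called. At 15 min SLBP differed by 0.51 ± 0.19 (95% interval 0.12 to 0.90, edgeR adjusted p = 0.289), and its libraries overlapped.

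Other genes of the pathway were read from a list of 37 further replication genes and 30 further G1/S control genes, of which 37 and 27 were tested. At 3 h of GSK591, 4 of 37 replication genes were called, all higher, and 4 of 27 control genes, 2 higher and 2 lower, or 10.8% and 14.8% against the 11.0% of all genes. At 3 h of MS023 it was 3 of 37 and 3 of 27, all higher, or 8.11% and 11.1% against the 7.63% of all genes. These shares were near the background. Their medians at 3 h lay between -0.03 and 0.06. DONSON, which helps assemble the active helicase, read 12.8 and 15.4 CPM in untreated cells, 31.0 and 22.7 after 15 min of GSK591, 9.19 and 14.3 after 15 min of MS023, 38.2 and 41.3 after 3 h of GSK591, and 47.1 and 38.0 after 3 h of MS023. It rose by 1.49 and 1.60 at 3 h and by 0.93 after 15 min of GSK591 (edgeR adjusted p = 2.28e-09, 5.22e-10 and 0.00156), the last lost without untreated replicate 1 (adjusted p = 0.334) or GSK591 15 min replicate 1 (adjusted p = 0.598). MCMBP, which binds MCM subunits, rose by 1.14 and 0.97 at 3 h (edgeR adjusted p = 1.44e-08 and 8.67e-07).

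The remaining calls among the replication genes at 3 h were CHTF18 (0.38 and 0.33 with the 2 inhibitors) and TIMELESS (0.46 with GSK591), and each call was lost without any 1 of 3 of the 4 libraries compared (adjusted p = 0.0645 to 0.469). Among the control genes, CDKN2D, an inhibitor of CDK4 and CDK6, rose by 1.45 and 1.42 (edgeR adjusted p = 4.99e-07 and 1.10e-06), from 5.70 and 9.96 CPM in untreated cells to 19.5 and 23.4 with GSK591 and 20.8 and 21.2 with MS023. TFDP1, the partner of the E2F factors, rose by 1.07 and 0.68 (edgeR adjusted p = 2.76e-05 and 0.0147), the latter lost without untreated replicate 1 or MS023 3 h replicate 2 (adjusted p of up to 0.182). CDKN1A, the p21 inhibitor, was called with MS023 at 0.64 (edgeR adjusted p = 0.00225), lost without untreated replicate 1 or MS023 3 h replicate 1 (adjusted p of up to 0.143), and read 0.27 with GSK591 (edgeR adjusted p = 0.272). CDK6 (-0.39) and CCND1 (-0.29) were called lower with GSK591, and both calls were lost with library size alone and with DESeq2. The CCND1 call was also lost without any 1 of the 4 libraries compared (adjusted p = 0.137 to 0.245), and the CDK6 call without untreated replicate 2 or either GSK591 3 h library (adjusted p = 0.0756 to 0.32). The difference between the inhibitors for CDKN1A was -0.38 (edgeR adjusted p = 0.652). With Dex added to GSK591, 2 of 37 replication and 1 of 27 control genes were called (5.41% and 3.7%, against 3.70% of all genes). Beside MS023 it was 4 of 37 and 4 of 27 (10.8% and 14.8%, against 8.97% of all genes). CDKN1A was called higher beside each inhibitor, at 0.69 beside MS023, and both calls were lost with library size alone. The call beside GSK591 was also lost without GSK591 15 min replicate 1 or GSK591 plus Dex replicate 1. That beside MS023 was also lost without MS023 15 min replicate 2. POLD4, a small subunit of polymerase delta, was lower with Dex, at -0.80 beside GSK591 and -0.78 beside MS023 (edgeR adjusted p = 4.51e-05 and 9.93e-06). It read 38.2 and 41.5 CPM with GSK591 plus Dex against 73.8 and 64.5 with GSK591 alone, and 46.5 and 36.9 with MS023 plus Dex against 75.0 and 67.8 with MS023 alone.

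The authors' deposited tables of their own DESeq2 comparisons with the control called 1 of the 49 genes at 3 h of GSK591 and 2 at 3 h of MS023. Of all 58780 genes in them, 535 and 359 were called. In the authors' deposited table SLBP stood at 1.34 with GSK591 (adjusted p = 0.000857) and 1.26 with MS023 (adjusted p = 0.00343). POLE in the authors' deposited table stood at -0.46 with MS023 (adjusted p = 0.0426) and -0.41 with GSK591 (adjusted p = 0.0628). The authors' deposited tables gave an adjusted p to 34 of the 49 genes at 3 h of GSK591 and to 42 at 3 h of MS023, and called 0 of 49 in the other 4 comparisons, where 0 to 1 had an unadjusted p under 0.05. Their values may not rest on the same control libraries as those here. With GSK591 at 3 h, ORC6 stood at -0.40 and TK1 at -0.30 in the authors' deposited table. The fits here gave -0.40 and -0.30 without untreated replicate 1, and -0.44 and -0.33 with DESeq2 on all 14 libraries. Which control libraries entered the deposited comparisons was not tested.

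Across the 13 planned comparisons 12 of the 49 genes were called at least once and 37 in none. The share of all genes called at least once was not counted, and single comparisons called up to 12.0% of them. The shallowest genes, PRIM2, RFC3, GINS3, PRIM1 and POLE2, had means of 12.3 to 33.6 counts per library and SEs of 0.28 to 0.45 on the log2 scale at 3 h. The median replicate difference of the 49 genes was 0.13 to 0.16 on the log2 scale by group. Because the strand setting is not given in the sources used here, the 22 genes whose exons overlap another gene's are less certain, 9 of them with 10% or more of their length shared. SLBP, MCM5, POLE, TK1, CCNE1, ORC6 and CDC6 overlap none.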

How the data were processed

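PRO-seq of A549 cells was read from 14 libraries in 7 groups of 2. The deposited count table holds whole, unnormalized counts per gene, made by the authors on hg38 with Subread and featureCounts 2.0.1, per the submitters' processing notes. Strandedness, alignment settings, treatment of duplicates and the feature counted are not given in the sources used here, and no spike-in was used here. The authors' deposited comparison tables, made with DESeq2 per the submitters' processing notes, give log2 fold changes, their test score (the Wald statistic), p-values and a mean signal (normalized base mean) per gene.

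The counts were fitted with edgeR 4.0.16 (R 4.3.3, limma 3.58.1): all 14 libraries, 1 coefficient per group, TMM scaling, filterByExpr, quasi-likelihood F-test with 7 residual degrees of freedom, no replicate block, and Benjamini-Hochberg adjustment over 21910 genes within each of 13 planned comparisons and 1 added after the data were seen. Genes were called at an adjusted p under 0.05. An SE is the log2 fold change divided by the root of F. The biological coefficient of variation was 0.0728. CPM are TMM-scaled. Values in every library are given for members called in any planned comparison and for 8 set ones (MCM2, CDC45, PCNA, POLA1, RRM2, E2F1, CCNE2, UHRF1). Coordinates are hg38 from GENCODE 29, to which all 58780 IDs matched; 22731 rows carry no name in the table. Total counts per library ran from 5768312 to 9606938; SEs also carry the spread between replicates. The scripts were tested on simulated data. Alternatives were other scalings, no filter, only the groups compared, the replicate block, each library left out, DESeq2 1.42.0 and a GC trend. The members and lists were chosen with earlier results of these data known.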

Additional observations from a re-analysis of the deposited data

Results flagged for a closer look

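Both results that stood out concern DONSON, a gene of the further replication list, whose effect differed between the inhibitors when the difference itself was tested. The Dex effect beside GSK591 minus that beside MS023 was -1.18 ± 0.23 (log2 ± SE, edgeR adjusted p = 0.00328). DONSON read 31.0 and 22.7 CPM with GSK591 and 33.0 and 28.6 with GSK591 plus Dex, against 9.19 and 14.3 with MS023 and 27.9 and 31.6 with MS023 plus Dex. The call was lost without GSK591 15 min replicate 1 (adjusted p = 0.121), MS023 15 min replicate 1 (adjusted p = 0.226) or MS023 plus Dex replicate 2 (adjusted p = 0.0533). The change from 15 min to 3 h with GSK591 minus that with MS023 was -1.34 ± 0.22 (edgeR adjusted p = 0.00116), a comparison added after the data were seen. It was lost with library size alone (-1.11, adjusted p = 0.0634), without GSK591 15 min replicate 1 (-1.09, adjusted p = 0.0515) or without MS023 15 min replicate 1 (-1.02, adjusted p = 0.13). Both differences use the same 15 min libraries. Between those, DONSON was itself called, higher with GSK591 than with MS023 by 1.23 (edgeR adjusted p = 7.95e-05). That call held in 11 of 12 alternatives and was lost without MS023 15 min replicate 1. Between the inhibitors at 3 h, 0 of the 37 further replication genes were called.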

How the results depend on the processing

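Of 176 alternative counts of called genes, 135 stayed within 1.5 times the reported count and 41 moved; of 347 alternative log2 fold changes of called genes, 240 kept the call, 107 lost it and 0 reversed. With library size alone the counts were 2 (GSK591 3 h), 1 (MS023 3 h), 1 (MS023 plus Dex), 1 (GSK591 over time) and 3 (Dex beside MS023). With DESeq2 they were 2 (MS023 3 h), 1 (MS023 plus Dex), 2 (GSK591 over time), 4 (MS023 over time) and 0 (Dex beside GSK591). With no filter, and likewise with only the groups compared, they were 5 (MS023 over time) and 0 (Dex beside GSK591), and with the GC trend removed, an alternative added after the data were seen, 0 (Dex beside GSK591). Leaving out 1 library at a time gave 2 to 5 (GSK591 3 h), 1 to 4 (MS023 3 h), 0 to 1 (GSK591 plus Dex), 1 to 1 (MS023 plus Dex), 0 to 2 (GSK591 over time), 3 to 5 (MS023 over time), 0 to 0 (Dex beside GSK591), 0 to 1 (Dex beside MS023), 0 to 1 (difference of the Dex effects) and 0 to 1 (the inhibitors at 15 min). The causes were not tested, apart from the fewer libraries. Replicate numbers did not pair the libraries: same-numbered deviations correlated at -0.073 to 0.111 over 21 pairs of groups, and with the replicate block the counts were those reported (7 at GSK591 3 h, 5 at MS023 3 h, 4 and 8 over time).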
